A study of Rattus norvegicus with 38 samples.

Results

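The class I antigen presentation genes measured here comprised the rat class I heavy chains RT1-A, RT1-CE5 and RT1-N2, their light chain B2m, the peptide transporter subunits Tap1 and Tap2, tapasin (Tapbp) and the inducible proteasome subunits Psmb8, Psmb9 and Psmb10. Every probeset annotated to 1 of these symbols, under its current or a former name, was taken. This gave 18 probesets for all 10 genes on each array type, of 15866 probesets on the heart array and 31042 on the array used for peripheral blood mononuclear cells (PBMC). RT1-CE5 was represented by 5 probesets, RT1-A by 3 and B2m and Tap1 by 2 each, while the other genes had 1. Of the 3 RT1-A probesets, 1 is annotated to RT1-A itself (1370429_at) and 2 to RT1-A3, which carries RT1-A as a former name (1371213_at and 1388256_at).

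The samples came from a rat model of acute cardiac rejection in which a Dark Agouti (DA) donor heart was placed in the abdomen of a recipient that kept its own heart. Brown Norway (BN) recipients differ from DA in the major histocompatibility complex and reject the graft, whereas DA recipients accept it. On post-transplant day 6, RAE230A arrays were made from 5 native BN hearts and the 5 DA allografts of the same rats, and from 4 native DA hearts and the 4 DA isografts of the same rats. PBMC were measured on RAE230 2.0 arrays in 14 recipients (5 BN rats bearing an allograft and 9 DA rats bearing an isograft) and, without transplantation, in 3 rats of each strain. The heart labels give the type of graft, and the strain of each heart follows from the transplant model in Methods. A native BN heart always came from an allograft recipient, so that strain and graft type of the recipient cannot be told apart in native hearts. Allografts always lay in BN and isografts in DA recipients, so that rejection and recipient strain cannot be told apart in grafts. The studied hearts were bulk tissue of the ventricles, in which more cells of a type and more RNA per cell cannot be told apart.

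MHC class I molecules present peptides of proteins made inside a cell to CD8 T cells. The proteasome cuts those proteins, and in cells exposed to interferon gamma the inducible subunits Psmb8, Psmb9 and Psmb10 take the places of the constitutive subunits Psmb5, Psmb6 and Psmb7. The Tap1 and Tap2 transporter carries the peptides into the endoplasmic reticulum, tapasin holds it close to empty class I molecules, and a heavy chain reaches the cell surface once it has bound B2m and a peptide. The heavy chains differ widely between inbred strains and are main targets of graft rejection.

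All values below are deposited signals divided by the median signal of their array, so that 1 is the level of the middle probeset. Differences are log2 values with their limma standard error (SE). A probeset counted as higher or lower where the p-value, adjusted by Benjamini and Hochberg's method across the whole array, did not exceed 0.10. Heart values are listed in the order of recipients 3, 4, 5, 6 and 7 (BN) and 9, 11, 12 and 13 (DA). The median signal before scaling was 38.3 to 50.8 on the heart arrays. On the PBMC arrays it was 20.2 to 23.7 in untransplanted rats and 26.6 to 36.8 in recipients, which the authors processed as separate batches. Levels of recipients and untransplanted rats of 1 strain therefore cannot be told apart from the batch. Cell markers in hearts went with their labels, since the 7 measured heart muscle genes summed to 457 array medians or more in every isograft and native heart. In the allografts they summed to 90.8 to 218, with the group median of 1 of the 7 below the array median. The same 7 genes were each below the array median in PBMC.

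Most steps of the class I pathway had higher transcript levels in rejecting allografts than in accepted isografts. Of the 18 probesets 14 were higher and 0 lower, with 4 short of the threshold, whereas 20.3% of all heart probesets were called higher and 21.2% lower in this comparison. The median difference of the 18 was 1.55 on the log2 scale, against 0.02 over all probesets. In 11 of the 18 the 2 groups did not overlap, which held for 31.3% of all probesets. The 8 that also differed by a factor of 3 or more and reached the array median in 50% of the samples of either group (the signal criterion) were Psmb8, Psmb9, Psmb10, the Tap1 probeset 1388149_at and 4 of the 5 RT1-CE5 probesets, and 3.81% of all probesets were higher by these criteria. The signal criterion alone was met by 13 of the 18.

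The inducible proteasome subunits rose together in the allografts. Psmb8 (LMP7) was at 38.2, 29.5, 15.8, 21.7 and 18.4 array medians in the 5 allografts and at 4.16, 2.54, 2.89 and 3.70 in the 4 isografts. Psmb9 (LMP2) was at 33.7, 27.0, 13.1, 18.9 and 22.0 in allografts and at 5.92, 3.90, 4.18 and 3.82 in isografts. Psmb10 (MECL-1) was at 20.9, 15.1, 7.08, 10.8 and 11.3 in allografts and at 4.01, 2.37, 2.90 and 3.07 in isografts. For each of the 3 genes the lowest allograft lay above the highest isograft, and the allograft of recipient 3 was the highest. Psmb8 was 7.20-fold higher (log2 difference 2.85, SE 0.24, limma adjusted p = 1.58e-07), a larger difference than that of 99% of all probesets. Psmb9 was 4.98-fold higher (2.32, SE 0.23, adjusted p = 7.99e-07) and Psmb10 4.03-fold (2.01, SE 0.27, adjusted p = 1.78e-05).

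The constitutive subunits that these 3 replace were not measurably higher. Psmb5 was at 12.4 to 19.9 array medians in allografts and 16.5 to 27.6 in isografts, and Psmb7 at 16.9 to 27.2 and 16.03 to 27.6. Neither passed the test (log2 difference -0.39, SE 0.21 for Psmb5, and 0.00 for Psmb7), and no probeset with Psmb6 as its single symbol was measured. Native hearts of both strains had 3.19 array medians of Psmb8 or less in DA and 2.62 to 4.35 in BN, so that the allografts stood apart from all 13 other hearts. Among proteasome activators and assembly factors, 2 of 4 were higher, Psme2 of the PA28 activator (1.39, SE 0.25) and Psmf1, a proteasome inhibitor and regulator (0.70, SE 0.22).

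**Figure D1:**
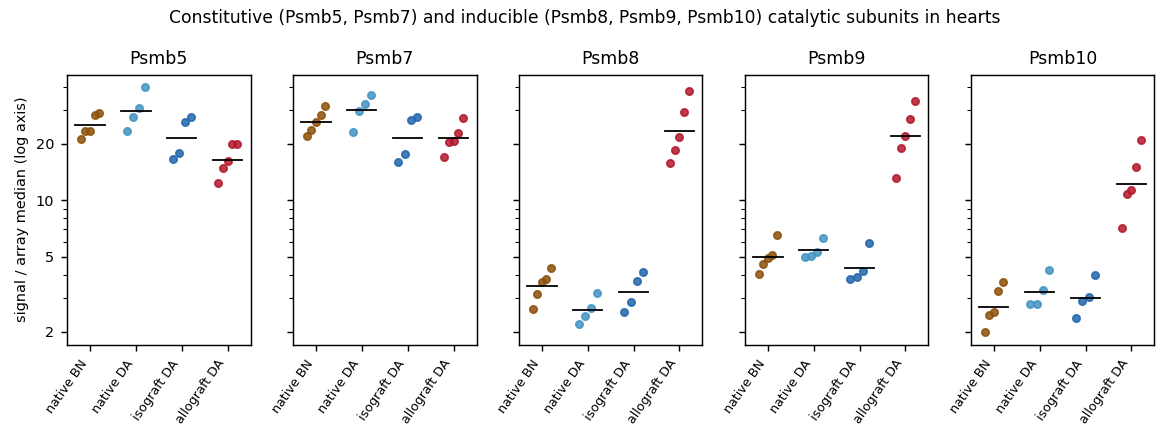
Signal over the array median, on a log axis, of the constitutive catalytic subunits Psmb5 and Psmb7 and the inducible subunits Psmb8, Psmb9 and Psmb10 in the 4 groups of hearts, with 1 point per heart and a bar at the geometric mean. The 5 allografts lie above the other 13 hearts for the 3 inducible subunits (Psmb8 at 15.8 or more) and among them for Psmb7.

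The transporter rose at both of its subunits, and tapasin did not pass the test. Tap1, measured by 1388149_at, was at 5.0, 4.29, 2.60, 2.84 and 3.92 array medians in allografts and at 0.73, 0.73, 0.82 and 0.77 in isografts (log2 difference 2.25, SE 0.48, adjusted p = 0.00128). Its other probeset, 1375379_at, lay below the array median in every heart and had 0.32 to 0.56 in allografts and 0.07 to 0.36 in isografts, with an overlap. That difference (1.32, SE 0.52, adjusted p = 0.0604) missed the threshold on leaving out allograft 5 or 6 or isograft 11 or 12, with adjusted p-values of 0.104 to 0.223, and was 0.66 with 0.25 array medians added before the logarithm. The 2 Tap1 probesets did not differ in their log2 change by the pair test described below (difference -0.92, SE 0.64, adjusted p = 0.392).

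Tap2 was at 2.87, 2.58, 1.81, 1.47 and 2.13 array medians in allografts and at 1.08, 1.18, 0.70 and 0.95 in isografts. The groups did not overlap, and the difference was 1.14 (SE 0.36, adjusted p = 0.0212). Tapbp was at 2.40 to 3.68 in allografts and 2.09 to 2.97 in isografts, which overlap (0.29, SE 0.18, adjusted p = 0.257). Of 9 measured loading partners, chaperones and trimming peptidases, 4 were higher, 1 was lower and 4 did not pass, with a median of 0.48 on the log2 scale. The 4 were the chaperone Hspa5 (1.19, SE 0.19), calreticulin (Calr, 1.17, SE 0.16), the disulfide isomerase Pdia3 (0.93, SE 0.14) and the trimming peptidase Erap1 (0.90, SE 0.15). The cytosolic peptidase Tpp2 was the lower one (-0.65, SE 0.19).

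**Figure D2:**
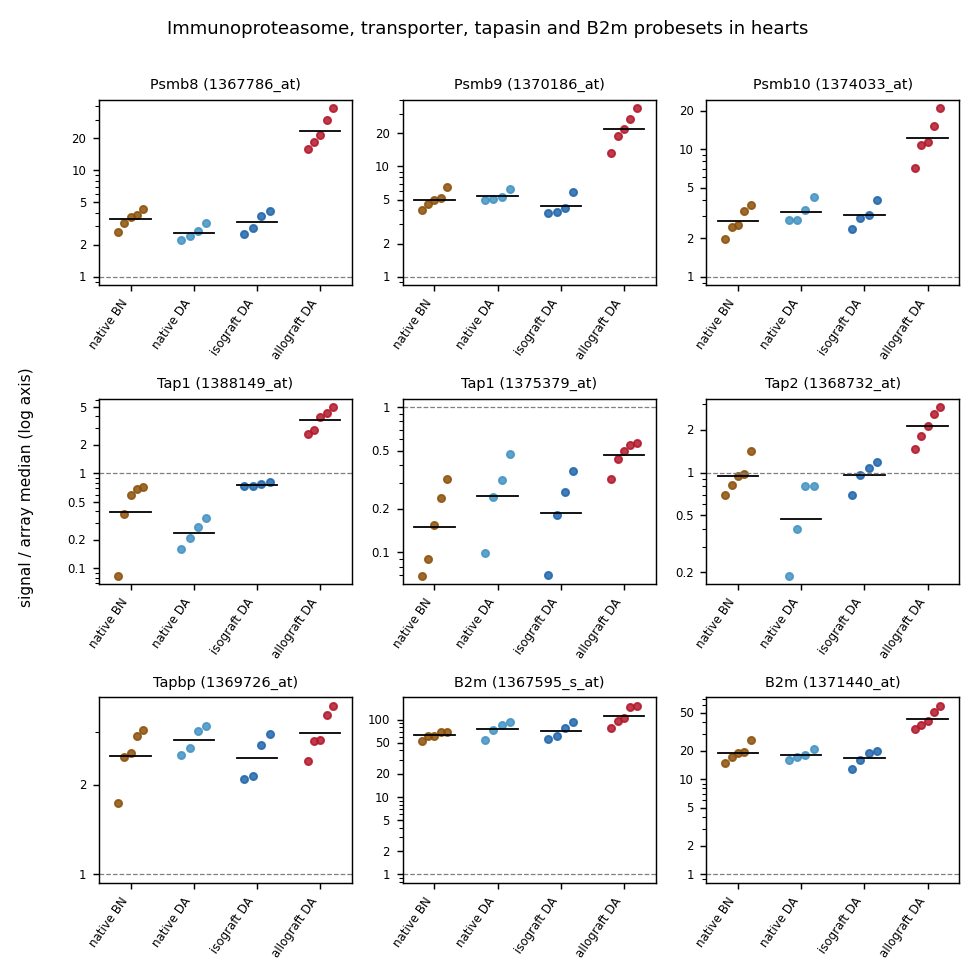
Signal over the array median, on log axes, of the 9 probesets of Psmb8, Psmb9, Psmb10, Tap1, Tap2, Tapbp and B2m in the 4 groups of hearts, with 1 point per heart, a bar at the geometric mean and a dashed line at the array median. The allografts are separate from the isografts for all but Tapbp, the B2m probeset 1367595_s_at and the dim Tap1 probeset 1375379_at, which stays under 0.57.

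B2m, the light chain of every classical class I molecule, rose in allografts by both of its probesets, to different extents. The probeset 1371440_at was at 59.0, 50.4, 33.9, 37.6 and 40.6 array medians in allografts and at 18.6, 12.9, 15.8 and 19.8 in isografts, with no overlap. The probeset 1367595_s_at was at 151, 144, 78.0, 94.7 and 105 in allografts and at 93.3, 56.3, 61.0 and 77.4 in isografts, where allograft 5 lay below the highest isograft. The differences were 1.39 (SE 0.20, adjusted p = 3.03e-05) and 0.65 (SE 0.22, adjusted p = 0.0266). The change of 1367595_s_at minus that of 1371440_at was -0.74 (SE 0.19, adjusted p = 0.0157 in the pair test).

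The heavy chain probesets divided into groups with large, moderate and no measurable change. RT1-CE5, a class I gene of the RT1-C/E region, had the largest difference at 1371209_at, which was at 9.51, 8.85, 7.39, 9.23 and 4.58 array medians in allografts and at 0.82, 0.70, 0.61 and 0.54 in isografts. This was 11.7-fold (3.54, SE 0.24, adjusted p = 1.69e-08), a larger difference than that of 99.7% of all probesets. The probesets 1388255_x_at (3.25, SE 0.38), 1371210_s_at (2.97, SE 0.51) and 1370972_x_at (1.71, SE 0.30), annotated to the same gene, were also higher, each without overlap. Their limma adjusted p-values were 0.00022 or less. The difference of 1371210_s_at was 2.21 with 0.25 array medians added before the logarithm. The fifth, 1388254_a_at, was at 0.02 to 0.09 array medians in all transplanted hearts and did not pass the test (-0.55, SE 0.54).

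RT1-A, the classical class I locus, was at 5.41, 4.19, 2.86, 3.08 and 1.96 array medians in allografts and at 1.40, 1.34, 1.07 and 1.02 in isografts by 1370429_at. The groups did not overlap and the difference was 1.47 (SE 0.30, adjusted p = 0.000982). The RT1-A3 probesets were at 0.45 to 1.25 and 0.26 to 0.56 in allografts and at 0.53 to 0.86 and 0.20 to 0.48 in isografts. Neither passed the test (0.26, SE 0.32, and -0.02, SE 0.38). RT1-N2, a nonclassical class I gene, was below 0.39 array medians in every heart, with 0.06 to 0.39 in allografts and 0.02 to 0.12 in isografts (1.64, SE 0.66, adjusted p = 0.0643). It lost the call when allograft 3 or 5 or isograft 11 or 12 was left out (adjusted p 0.115 to 0.186) or when 0.25 array medians were added before the logarithm (0.42, adjusted p 0.141).

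Other genes of the class I system and of its control rose as well. Of 13 other class I and class I-like genes 7 were higher and 2 lower, with RT1-N3 (2.98, SE 0.78), RT1-CE16 (2.80, SE 0.40), RT1-T24-3 (1.80, SE 0.60) and RT1-CE10 (1.69, SE 0.14) having the largest increases. The lower ones were Cd1d1, a lipid-presenting molecule (-1.13, SE 0.24), and the neonatal Fc receptor Fcgrt (-1.10, SE 0.15). Of 11 measured regulators and genes of the interferon gamma axis, 8 were higher and none was lower, led by the interferon regulatory factors Irf1 (2.05, SE 0.23) and Irf8 (1.79, SE 0.26), interferon gamma itself (Ifng, 1.84, SE 0.70) and the kinase Jak2 (1.24, SE 0.35). Among 6 genes of receptors for class I or of their families, 5 were higher, with the inhibitory receptor Lilrb4 at 5.14 (SE 0.69) and the T cell co-receptor chain Cd8a at 5.06 (SE 0.63).

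Leukocyte markers moved with these results. All 9 T cell markers and all 5 monocyte and macrophage markers were higher in allografts, and all 7 heart muscle markers and 3 of 5 fibroblast markers were lower. The summed level of 5 pan leukocyte genes was 58.0 to 105 array medians in allografts and 7.44 to 12.5 in isografts, and that of the T cell genes was 20.1 to 44.6 against 5.01 to 5.88. In isografts 7 of the 9 T cell markers were below the array median, as were all 5 NK and cytotoxic markers, while 1 of the 5 monocyte and macrophage markers was. The part that infiltrating cells had in the class I differences was not tested.

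Psmb9 and Tap1 were set against all other heart genes to see which had the most similar profile over the 18 arrays. Among 6909 probesets of 1 gene with a signal at or above the median in 50% of arrays, those most like Psmb9 were LOC100910973 (Pearson r = 0.977), Pycard (0.969), Rac2 (0.969), Fcgr3a (0.967) and Ddx39a (0.965). Those most like Tap1 were Dnajc13 (0.949), Plxnb2 (0.948), Mvp (0.939), Morf4l2 (0.939) and Cd68 (0.937). The points share the 4 groups, and with group means removed the 10 correlations ran from 0.60 to 0.88. In PBMC the gene most like Psmb9 over 20 arrays and 11986 probesets was Psme2, a subunit of the proteasome activator PA28 (r = 0.986, and 0.97 with group means removed).

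Because most of these genes were higher in allografts than in isografts, the promoters of all 10 were read for the letters of interferon response elements. The RefSeq table of the GRCr8 assembly holds 250 bases before to 50 after each start for the 10 genes, with RT1-A3 for RT1-A. The first motif was GAAA, any 2 bases, and GAAA again. Searched on both strands, it is in 6 of these 10 windows and in 3.77% of all 27457. The second, GAAGTGAAA, is in 4 of 10 and in 0.506% of all, and it overlaps the first motif in Psmb8 and Tap2. The windows of Psmb9 and RT1-N2 hold neither. These letters were chosen with the promoters already read, and a match describes the sequence and is no evidence of a bound factor. The 30-base stretches below are on GRCr8, 5′ to 3′ on the strand of the gene, so that the matches can be compared. Capitals mark the match, which reads as TTTC where it lies on the other strand, and the distance is that of its first base from the start. Tapbp and Psmb10 have 2 matches each, of which the farther from the start is shown.

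Tap2, first motif, chr20:4652318-4652347, minus strand, 41 bases before the start: gcagcgaagtGAAAGCGAAAgcccgggacc
Psmb8, first motif, chr20:4657016-4657045, minus strand, 4 bases before the start: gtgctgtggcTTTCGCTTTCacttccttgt
Tapbp, first motif, chr20:4967884-4967913, minus strand, 26 bases before the start: gcctttgaggGAAAATGAAAgtgaaaggaa
Psmb10, first motif, chr19:50743346-50743375, minus strand, 73 bases before the start: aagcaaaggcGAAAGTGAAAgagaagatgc
B2m, first motif, chr3:129549170-129549199, plus strand, 150 bases before the start: ataagaacatGAAACTGAAAatgggaaagt
RT1-CE5, second motif, chr20:3484218-3484247, minus strand, 146 bases before the start: catctcccctgTTTCACTTCtgctcctaac
RT1-A3, second motif, chr20:4849291-4849320, plus strand, 149 bases before the start: catctccccagTTTCACTTCtgcttctaac

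RT1-CE5 and RT1-A3 carry the second motif at nearly the same distance from their starts. The 250 bases before the start of Tap1 are given whole because 408 bases separate Tap1 from Psmb9, its neighbour that is read in the other direction. The first motif, in capitals, begins 121 bases before the start of Tap1.

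Tap1, chr20:4668544-4668793, minus strand: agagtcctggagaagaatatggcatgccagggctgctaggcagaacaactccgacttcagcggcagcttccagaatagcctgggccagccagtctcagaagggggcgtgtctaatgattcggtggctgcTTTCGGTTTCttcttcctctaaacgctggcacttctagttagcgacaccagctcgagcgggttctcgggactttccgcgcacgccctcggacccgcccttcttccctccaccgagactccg

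Among genes with a match, Tapbp (0.29, SE 0.18) and both RT1-A3 probesets (0.26, SE 0.32, and -0.02, SE 0.38) did not pass the test in allografts. Psmb9, whose own window has no match, rose by 2.32 on the log2 scale. Any part of these motifs in the differences was not tested.

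Isografts were set against the native hearts of the same DA rats to measure the effect of surgery without rejection. Of the 18 probesets only that of Tap1, 1388149_at, was called higher, 1 of 18 probesets where 7.15% of all were higher and 6.59% lower, and the median of the 18 was -0.10 against -0.08 over all. Tap1 was at 0.73, 0.73, 0.82 and 0.77 array medians in isografts and at 0.34, 0.21, 0.27 and 0.16 in the native DA hearts, without overlap (1.70, SE 0.50, adjusted p = 0.0503). It lost the call without isograft 12 or native heart 13 (adjusted p 0.110 and 0.133), and the difference was 1.05 with 0.25 array medians added. Tap2 (1.02, SE 0.38, adjusted p = 0.112) and RT1-N2 (-1.88, SE 0.70, adjusted p = 0.106) just missed it. With the recipient as a random block both passed, at adjusted p-values of 0.0956 and 0.0895. In the same comparison 4 of 5 monocyte and macrophage markers were higher, with sums of 39.6 to 67.9 array medians in isografts and 16.5 to 22.5 in native DA hearts. Fibroblast markers were higher in 3 of 5, with sums of 165 to 208 against 51.8 to 69.8, and of 5 pan leukocyte genes 3 were higher and 1 lower, with sums of 7.44 to 12.5 against 5.08 to 6.47. Of 9 T cell markers 0 passed. Their part in the Tap1 result was not tested. The isografts also enter the allograft comparison, so that both comparisons share those samples.

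Within BN recipients, the DA allograft was compared with the rat's own heart, a contrast of strain and rejection at once that shares its allografts with the comparison above. Of the 18 probesets 13 were higher and none lower, whereas 23.1% of all probesets were higher and 26.3% lower, and the median difference was 1.61 against -0.08. On the scale without an added constant RT1-A had the largest difference of the 18, 14.1-fold (3.81, SE 0.28, adjusted p = 1.46e-08), with native BN hearts at 0.19 to 0.30 array medians and allografts at 1.96 to 5.41. Tap1 (1388149_at) followed at 3.21 (SE 0.45), RT1-CE5 (1371209_at) at 2.89 (SE 0.23) and Psmb8 at 2.76 (SE 0.23). With 0.25 array medians added before the logarithm, RT1-A differed by 2.88 and Tap1 by 2.48, both still past the threshold. Whether the RT1-A probeset binds the DA and the BN transcript alike was not tested.

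Native hearts of the 2 strains differed in heavy chains, and no probeset of B2m, the transporter, tapasin or the proteasome passed the test. Of the 18 probesets 3 were higher in BN (1.48% of all were) and 1 was lower (1.46% of all), and all 4 were heavy chain probesets. RT1-A (1370429_at) was at 0.24, 0.22, 0.24, 0.19 and 0.30 array medians in the 5 native BN hearts and at 1.23, 0.45, 1.05 and 1.14 in the 4 native DA hearts. No BN heart reached the lowest DA heart, and the level was 3.84-fold lower in BN (log2 difference -1.94, SE 0.30, adjusted p = 0.00231). It kept its call under every alternative tried, with values from -2.28 to -1.27, the latter with 0.25 array medians added. DA heart 11, at 0.45, lay far below the other 3 native DA hearts. The RT1-A3 probesets 1371213_at and 1388256_at differed by -0.17 and -0.21, and neither passed. Whether 1370429_at binds the BN and the DA transcript alike was not tested. T cell, NK and monocyte markers did not pass the strain test in native hearts, while of 5 pan leukocyte genes 1 was higher and 1 lower, and 2 of 3 endothelial genes were higher in BN. Their part in the heavy chain differences was not tested.

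The RT1-CE5 probesets did not all differ in the same way between the strains. In native BN hearts 1371209_at was at 1.28, 0.89, 1.31, 1.00 and 0.78 array medians, and in native DA hearts at 0.65, 0.55, 0.62 and 0.37. The probeset 1388255_x_at was at 1.09, 1.20, 1.88, 0.91 and 0.91 in BN and at 0.75, 0.59, 0.34 and 0.20 in DA. These 2 did not overlap, while 1371210_s_at, at 0.23 to 0.86 in BN and 0.08 to 0.28 in DA, did. All 3 were called higher in BN (0.95, SE 0.24; 1.47, SE 0.38; and 1.97, SE 0.51; adjusted p = 0.0592 to 0.064 in limma). In contrast, 1370972_x_at was at 1.02 to 1.68 in BN and 1.41 to 2.31 in DA, with overlap (-0.49, SE 0.30, adjusted p = 0.5). These 3 calls depended on the fit, since 0 passed when it held only the native hearts. Leaving out native BN heart 3 or 5 also left 0 probesets higher, leaving out BN heart 4 or DA heart 11, 12 or 13 left 1, and leaving out BN heart 7 gave 4. With 0.25 array medians added, the difference of 1371210_s_at was 1.02.

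Pairs of probesets of 1 gene were compared directly by fitting the log2 difference between both on the same array, over all 3085 such pairs of the heart array. The 18 probesets form 13 pairs, 10 of them within RT1-CE5. For strain 3 of the 13 differed, where 1.88% of all pairs did, and all 3 set 1370972_x_at against another RT1-CE5 probeset with a change of the opposite sign. The differences were -1.44 (SE 0.30, adjusted p = 0.0177) against 1371209_at, -1.96 (SE 0.39, adjusted p = 0.013) against 1388255_x_at and -2.46 (SE 0.59, adjusted p = 0.0492) against 1371210_s_at. For rejection 7 of the 13 differed, against 17.8% of all pairs. Of these, 4 involved 1388254_a_at, which was below the array median, 2 set 1370972_x_at below 1371209_at (-1.83, SE 0.30) and 1388255_x_at (-1.54, SE 0.39), and 1 was the B2m pair. With the fit restricted to pairs whose probesets both met the signal criterion, 4 member pairs differed for rejection, against 35.3% of all such pairs. That fit left out the RT1-A3 pair, the Tap1 pair and the pairs with 1388254_a_at, so that the 4 are not a share of 13. For strain, 10.1% of all pairs that met this criterion differed, and the pair of 1370972_x_at and 1371210_s_at did not meet it. In PBMC 0 of the 13 differed by limma for strain or, in recipients, for strain plus rejection, where 1.77% and 6.32% of all 9597 pairs did. The lowest adjusted p-values were 0.529 and 0.111, with 1 and 3 pairs at an unadjusted p under 0.05. Restricted to pairs that met the signal criterion, 1 member pair differed in recipients, against 16.8% of all such pairs. The RT1-A3 pair and the pairs with 1388254_a_at were left out there.

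**Figure D3:**
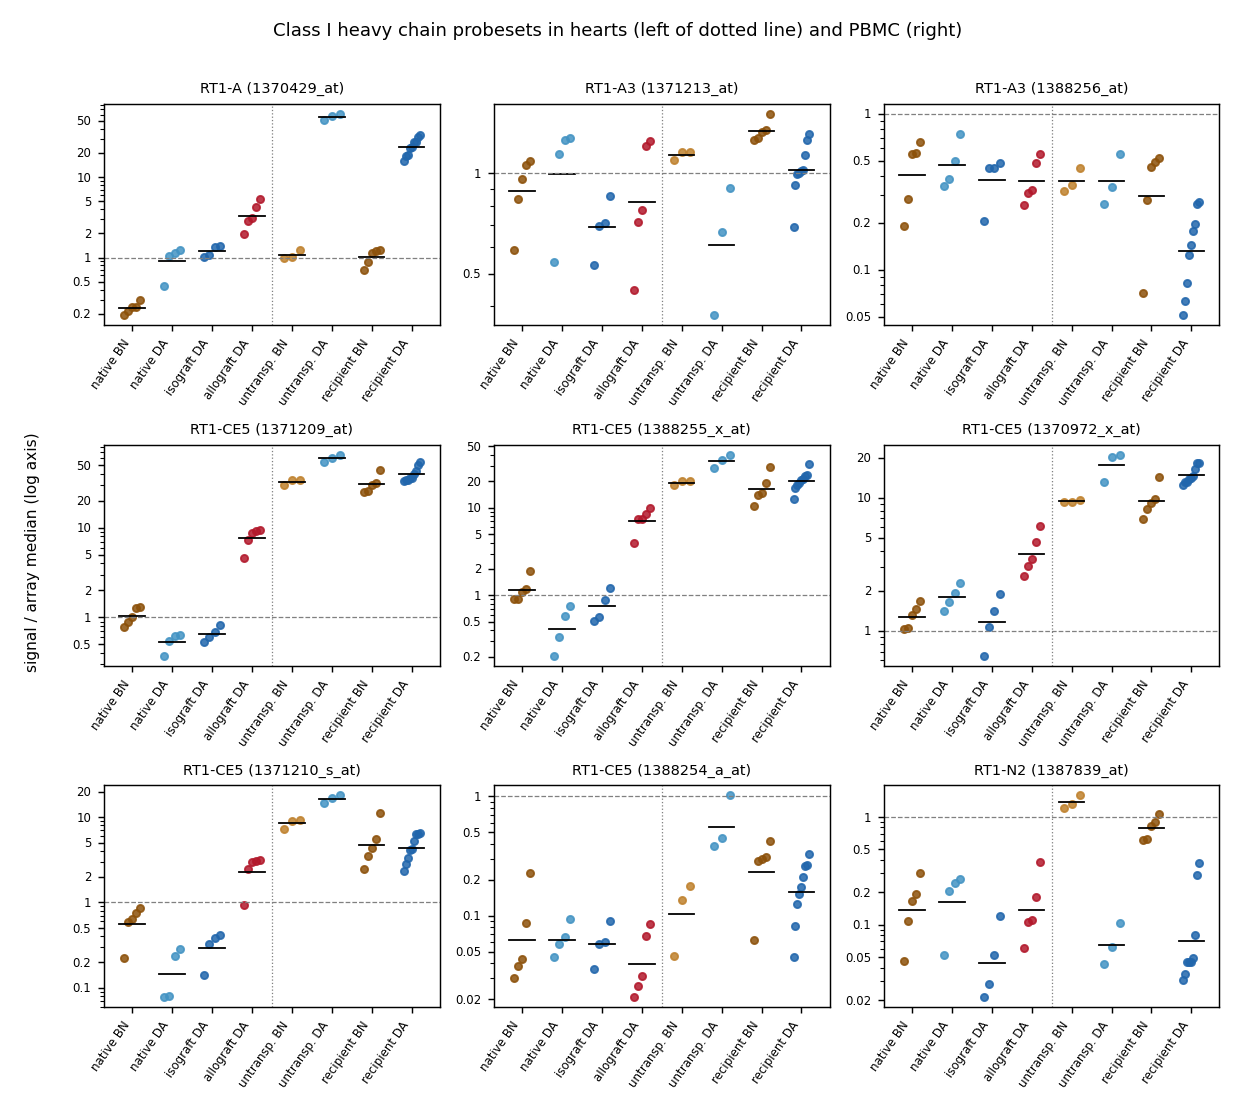
Signal over the array median, on log axes, of the 9 heavy chain probesets in the 4 groups of hearts and the 4 groups of PBMC, with 1 point per sample, a bar at the geometric mean and a dashed line at the array median where it is in range. Hearts and PBMC are separate array types that were scaled separately. RT1-A by 1370429_at is at 0.30 or less in BN native hearts and at 0.45 or more in those of DA. In PBMC it is at 1.26 or less in BN and at 15.8 or more in DA. The probeset 1371209_at of RT1-CE5 is at 0.78 or more in BN native hearts and lower in those of DA, and RT1-N2 stands out in BN PBMC.

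In PBMC the largest strain differences in the pathway were again in heavy chains, and in opposite directions for RT1-A and RT1-N2. In untransplanted rats 2 of the 18 probesets were higher in BN than in DA (3.58% of all were) and 6 were lower (4.86% of all), with a median of -0.59 against -0.08 over all. The count lower was 3 without BN rat 1 or 3 or DA rat 1 and 4 without DA rat 2 or 3, and the count higher was 1 without any 1 of the BN rats or DA rat 2. In 15 of the 18 the 3 BN and the 3 DA rats did not overlap, as in 28.7% of all probesets. In recipients, BN with an allograft against DA with an isograft, 1 was higher (6.66% of all) and 6 were lower (12% of all). The median there was -0.24 against -0.03.

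RT1-A (1370429_at) was at 1.00, 1.03 and 1.23 array medians in untransplanted BN rats and at 61.2, 56.8 and 51.2 in untransplanted DA rats. In recipients it ran from 0.70 to 1.26 in BN (median 1.14) and from 15.8 to 33.5 in DA (median 23.8). The strains were far apart in both settings, by -5.70 (SE 0.27, adjusted p = 2.45e-10) and -4.55 (SE 0.18, adjusted p = 1.16e-11). The difference between those contrasts, 1.15, did not pass the test (SE 0.33, adjusted p = 0.245). Equal binding of this probeset to the BN and the DA transcript was not tested. RT1-N2 was at 1.58, 1.21 and 1.33 in untransplanted BN rats, at 0.10, 0.04 and 0.06 in untransplanted DA rats, at 0.61 to 1.07 in BN recipients and at 0.03 to 0.38 in DA recipients. No DA sample reached a BN sample of the same setting, and the differences were 4.39 (SE 0.76, adjusted p = 0.00159) and 3.49 (SE 0.52, adjusted p = 0.00015). With 0.25 array medians added before the logarithm, the RT1-N2 differences were 2.34 and 1.60 and stayed past the threshold. In native hearts, where all RT1-N2 values were 0.30 array medians or less, BN and DA overlapped (-0.25, SE 0.66).

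The 5 RT1-CE5 probesets all had lower means in BN than in DA in untransplanted PBMC, although not all passed the test. The probeset 1371209_at was at 34.0, 34.1 and 29.7 array medians in BN and at 65.4, 60.7 and 54.4 in DA (-0.88, SE 0.22, adjusted p = 0.022). The values of 1370972_x_at were 9.63, 9.30 and 9.29 in BN and 21.1, 13.1 and 20.1 in DA (-0.91, SE 0.24, adjusted p = 0.0286). The other 3 differed by -0.82 to -2.43, and of these 1388254_a_at, at 0.05 to 1.02 array medians, was called (adjusted p = 0.0658), although not without BN rat 1 or 3 or DA rat 2 or 3. The call of 1370972_x_at was lost without DA rat 1 or 3. Thus 1371209_at was called higher in BN in native hearts and lower in BN in untransplanted PBMC, 2 results from separate array types. The heart call was lost with only the native hearts in the fit (limma adjusted p = 0.114). The native hearts came from recipients, and in recipient PBMC 1371209_at did not pass (-0.38, limma adjusted p = 0.113). In recipients the only RT1-CE5 probeset that passed was 1370972_x_at, at 6.92 to 14.5 in BN and 12.5 to 18.2 in DA, with overlap (-0.65, SE 0.16, adjusted p = 0.011). The RT1-A3 probeset 1371213_at was at 1.16, 1.16 and 1.10 in untransplanted BN and 0.90, 0.38 and 0.67 in DA (0.90, SE 0.25, adjusted p = 0.0427), and lost its call without any 1 of the BN rats or DA rat 2.

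Probesets with several symbols, of which at least 1 is a member, are given as a description only. The probeset of RT1-A, RT1-CE11, RT1-CE13, RT1-CE7 and RT1-CE5 (1371078_at) was lower in BN in native hearts (-1.36, SE 0.21) and in both PBMC contrasts (-1.85, SE 0.30, and -2.05, SE 0.20). That of RT1-A, RT1-CE16 and RT1-A1 (1371267_at) was lower in BN in both PBMC contrasts (-1.25, SE 0.22, and -0.86, SE 0.15). Among 13 other class I and class I-like genes in untransplanted PBMC, 4 were lower in BN, among them RT1-CE10 (-1.42, SE 0.25) and RT1-CE12 (-1.39, SE 0.16), and 2 were higher, RT1-CE16 (0.81, SE 0.18) and Fcgrt (0.64, SE 0.17). Whether a probeset binds the BN and the DA transcript of a heavy chain alike was not tested, since the sequences of the probes were not used here. For the same reason it was not tested whether a probeset annotated to 1 heavy chain, such as RT1-CE5, also binds others.

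**Figure D4:**
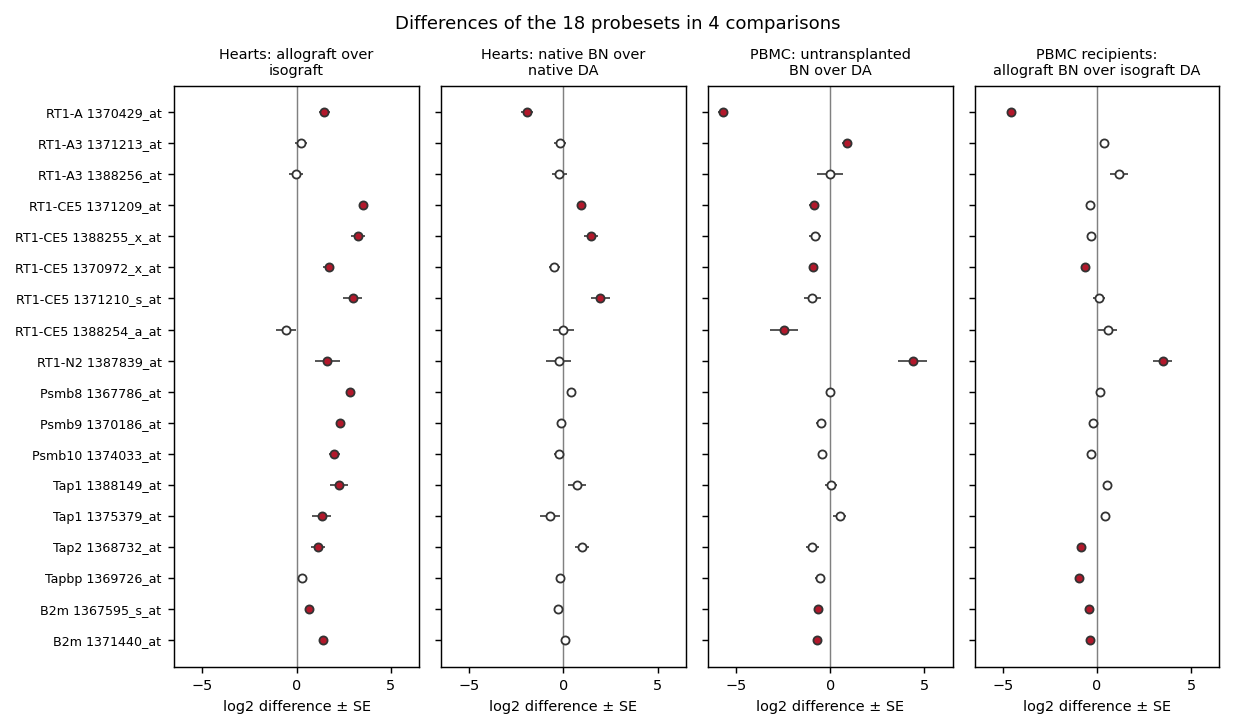
Log2 differences of the 18 probesets in 4 comparisons, with bars of 1 SE from limma and filled points for an adjusted p of at most 0.10. In hearts 14 probesets were higher in allografts than in isografts. The strain contrasts are led by RT1-A and RT1-N2 in PBMC (-5.70 and 4.39 in untransplanted rats).

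No proteasome or transporter probeset passed the strain test in the PBMC of untransplanted rats. Psmb8 was at 64.1, 72.2 and 68.8 array medians in untransplanted BN and 74.7, 67.4 and 63.7 in untransplanted DA, which overlap (0.00, SE 0.23). Psmb9 was at 64.3 to 76.0 in BN and 93.4 to 107 in DA, and Psmb10 at 29.2 to 32.8 and 37.7 to 44.2. Neither passed the test although the samples did not overlap (-0.50, SE 0.24, adjusted p = 0.261, and -0.43, SE 0.20, adjusted p = 0.274). Tap2 was at 12.4, 9.19 and 11.7 in BN and 18.9, 20.4 and 24.8 in DA (-0.95, SE 0.34, adjusted p = 0.119).

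Tapbp and Tap2 were lower in the PBMC of BN allograft recipients than of DA isograft recipients. Tapbp was at 8.07, 6.61, 4.85, 5.02 and 4.16 array medians in the 5 BN recipients and from 8.32 to 16.3 (median 10.7) in the 9 DA recipients, without overlap (-0.95, SE 0.17, adjusted p = 0.000938). Tap2 was at 8.70, 4.99, 4.30, 5.57 and 4.81 in BN and from 4.41 to 13.6 (median 11.5) in DA, where DA recipients 12 (7.92) and 17 (4.41) lay within the range of the BN recipients (-0.84, SE 0.23, adjusted p = 0.0201). Both kept their calls under all 20 alternatives. The other transporter subunit, Tap1 (1388149_at), was at 18.1, 8.68, 8.78, 11.3 and 9.43 in BN recipients and 4.93 to 13.8 (median 7.01) in DA recipients, which overlap (0.53, SE 0.22, adjusted p = 0.131). Under quantile normalization Tap1 and Psmb8 passed as higher in BN recipients (0.68, adjusted p = 0.0184, and 0.37, adjusted p = 0.00945). In untransplanted rats Tapbp was at 12.9, 13.3 and 14.2 in BN and 17.5, 18.2 and 23.0 in DA (-0.53, SE 0.25, adjusted p = 0.27).

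B2m was lower in BN in both contrasts, with a dependence on scaling. The probeset 1371440_at was at 100, 132 and 105 array medians in untransplanted BN and 195, 179 and 165 in untransplanted DA (-0.69, SE 0.19, adjusted p = 0.0386), and 1367595_s_at differed by -0.66 (SE 0.20, adjusted p = 0.0605). In recipients the differences were -0.39 (SE 0.13) and -0.43 (SE 0.13), with overlap. Under quantile normalization none of the 4 passed, and the 4 differences lay between -0.22 and 0.00. In untransplanted rats neither passed with only the 2 groups in the fit or without BN rat 1 or 3 or DA rat 1, and 1367595_s_at also not without DA rat 2 (adjusted p 0.122 to 0.198). In recipients neither passed without BN recipient 4 or 6, and 1371440_at also not without 5 or 7 (adjusted p 0.103 to 0.144). Among PBMC probesets past the signal criterion in recipients, 20.1% were lower in BN and 9.63% higher, so that lower calls were more frequent than higher ones among such probesets generally.

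T cell and NK markers moved with the PBMC contrasts, whereas B cell markers did not go the same way. Of 3 B cell markers 0 passed in untransplanted rats, and 2 were higher and 0 lower in BN than in DA recipients. In untransplanted BN rats 6 of 9 T cell markers and all 5 NK and cytotoxic markers were lower and 5 of 7 monocyte and macrophage markers higher than in DA. In BN recipients 8 of 9 T cell and 3 of 5 NK and cytotoxic markers were lower than in DA recipients. Of 7 monocyte and macrophage markers there, 4 were higher and 1 lower. Of 4 platelet markers 3 were lower and 1 higher, and of 4 red cell markers 3 were lower. Of 4 neutrophil markers 2 were higher and 1 lower. The T cell genes summed to 406 to 454 array medians in BN and 740 to 780 in DA, and in recipients to 180 to 311 and 294 to 498. The class I receptors Cd8a (-1.99, SE 0.24) and Cd8b (-1.93, SE 0.19), which form the T cell co-receptor for class I, had the largest differences of that list. Every measured T cell marker was above the array median in all 4 groups. The part of cell composition in the B2m, Tap2 and Tapbp differences was not tested.

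**Figure D5:**
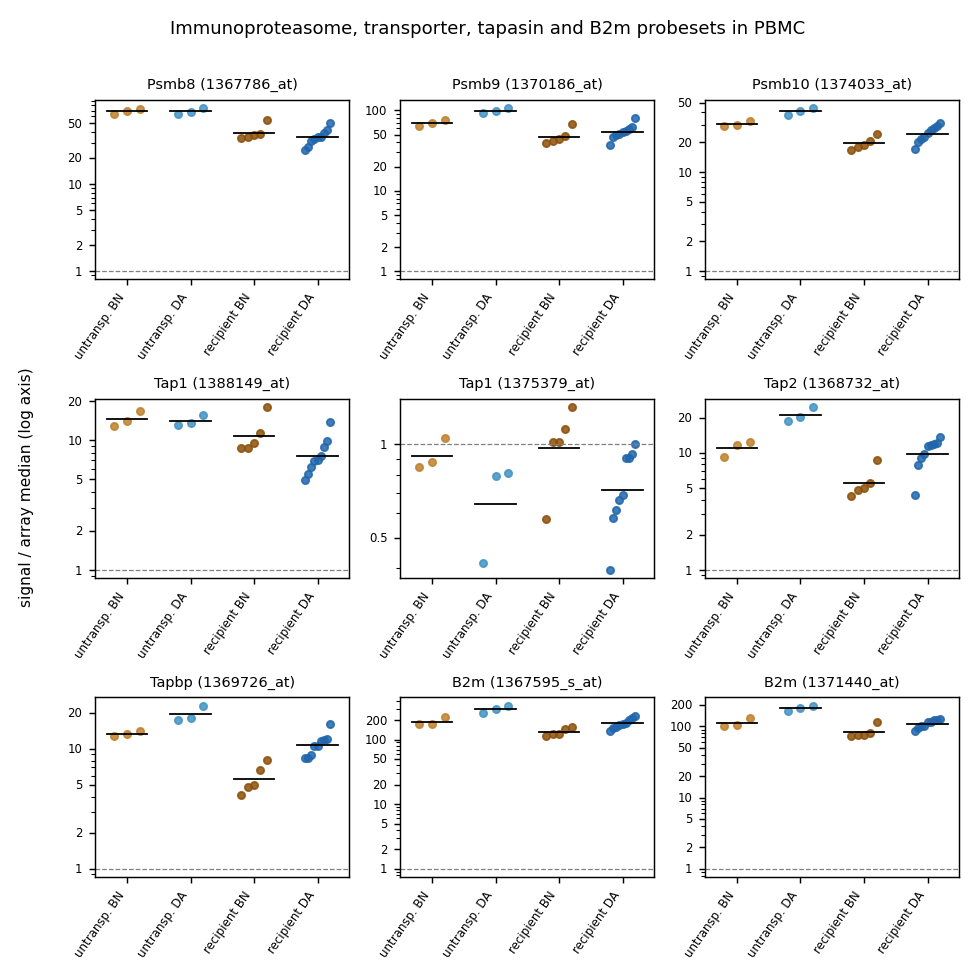
Signal over the array median, on log axes, of the 9 probesets of Psmb8, Psmb9, Psmb10, Tap1, Tap2, Tapbp and B2m in the 4 groups of PBMC, with 1 point per rat, a bar at the geometric mean and a dashed line at the array median. Untransplanted rats and recipients were separate batches. Tapbp separates BN recipients (8.07 or less) from DA recipients (8.32 or more), while Psmb8 overlaps between the strains.

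Rejection beyond strain, taken in PBMC as the difference between the recipient contrast and the untransplanted contrast, was not detected for any of the 18 probesets. None passed an adjusted p of 0.10 in limma (2 did at an unadjusted p under 0.05), whereas 0.213% of all probesets were called higher and 0.135% lower. The median was 0.28 against 0.02 over all. The values at an unadjusted p under 0.05 were those of RT1-A, given above, and of the RT1-CE5 probeset 1388254_a_at (2.99, SE 0.90, adjusted p = 0.289), which was at 0.42 array medians or less in recipients. Psmb8, Psmb9 and Psmb10, which were higher in allografts than in isografts, had differences of 0.17 (SE 0.28), 0.31 (SE 0.28) and 0.12 (SE 0.25).

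Recipient 3 often held the highest value of the 5 BN allograft recipients in its allograft and its PBMC, but not in its native heart. Its allograft was the highest for 13 of the 18 probesets, its PBMC for 13 and its native heart for 3. Over all probesets the same arrays were the highest for 24.9%, 39% and 14%. Among probesets of 10 array medians or more, allograft 3 was the highest for 38.7% and allograft 4 for 42.8%. Among such probesets the PBMC array of recipient 3 was the highest of 5 for 79.7%, and its median before scaling (27.4) was the lowest of the group. Without it, 8 probesets in place of 6 were lower in BN recipients and 2 in place of 1 higher. The count higher was also 2 without BN recipient 6 or DA recipient 14, 20 or 21.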

How the data were processed

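Heart RNA was hybridised to RAE230A and PBMC RNA to RAE230 2.0 arrays, 1 array per sample. The authors derived signal intensities with the array software's MAS5 algorithm, and the deposited intensities are on a linear scale. The software version is not given in the sources used here. Each array was divided by its median over non-control probesets (57 control probesets left out of each type), transformed to log2 and fitted separately for hearts and PBMC. The fit was lmFit and eBayes of limma 3.58.1 (R 4.3.3), with 1 mean per group over 4 groups. Median scaling, the threshold of 10% and the 3-fold criterion follow Methods. The signal criterion (array median reached in 50% of the samples of either group) stood in for present calls. Pairs of probesets with 1 shared symbol were fitted as within-array log2 differences. Symbols came from the platform annotation, updated to GRCr8, and 12783 heart and 20826 PBMC probesets had 1 symbol. All member probesets were named. Other lists use the probeset of highest mean signal per gene, with at most 4 called genes of largest change named per list and comparison, and the lower ones where few were lower were added after their values were seen. Members, lists and tests were chosen with earlier results of these data known. Rats are separate animals, and array number limits precision. Native and transplanted hearts of the same number came from the same recipient. The correlation of their deviations was -0.12 to 0.21, and not every graft correlated best with the native heart of its own number. The fits were tested on simulated data. Alternatives were quantile normalization, no median scaling, 0.25 array medians added, a signal filter, unmoderated variance, fewer groups, a replicate block and leaving out each sample.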

Additional observations from a re-analysis of the deposited data

Results flagged for a closer look

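Outlying values were sought on the log2 scale and are given below in array medians. In groups of 4 to 10 samples, a value was singled out when its gap to the nearest other value, over the range of the group, passed Dixon's 95% critical value. This held for 10 of 108 groups of values, where chance alone gives about 1 in 20. In native DA hearts, RT1-A (1370429_at) in heart 11 was at 0.448 array medians with the others at 1.05 to 1.23, and heart 9 was low for RT1-A3 (1371213_at, 0.542, others 1.15 to 1.27) and for RT1-N2 (0.0521, others 0.205 to 0.268). The RT1-CE5 probeset 1371210_s_at was low in recipient 7 in both of its hearts, with 0.923 in the allograft (others 2.44 to 3.12) and 0.226 in the native BN heart (others 0.589 to 0.864). The RT1-A3 probeset 1388256_at was at 0.205 in isograft 12 (others 0.45 to 0.481). In PBMC, BN recipient 3 was high for Psmb8 (54.5, others 34.0 to 37.3) and for B2m (1371440_at, 115, others 73.5 to 81.4). BN recipient 5 was low for RT1-CE5 (1388254_a_at, 0.0623, others 0.286 to 0.419), and DA recipient 17 for Tap2 (4.41, others 7.92 to 13.6).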

How the results depend on the processing

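No called value changed sign under any alternative, and 2086 of 2199 alternative values for single probesets stayed on their side of the threshold (69 lost and 44 gained a call). The number of probesets higher with rejection stayed at 12 to 14 when single hearts were left out. When both probesets had to pass the signal criterion, which not all of the 13 pairs did, 4 pairs differed for rejection. For native hearts the count higher in BN fell to 0 with only the 2 groups in the fit and ran from 0 to 4 when single hearts were left out, with 2 to 3 pairs differing. In isografts over native DA hearts 2 were higher under quantile normalization, no median scaling and 0.25 array medians added, and 0 to 2 higher and 0 to 1 lower when single hearts were left out. With the recipient as a replicate block of random effect 2 were higher and 1 lower there, and this pairing changed no other heart count (fixed block: 1 and 0).

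For untransplanted PBMC, 1 was higher with only the 2 groups in the fit, and 1 to 2 were higher and 3 to 6 lower when single rats were left out. These rats share only a label number, and the replicate block by that number left 0 higher and 0 lower. Same-number correlations were 0, 0.07 and 0.16, and not every rat correlated best with its own number. In recipients, the count higher in BN was 4 under quantile normalization, 6 without median scaling, 3 with 0.25 array medians added, 2 among probesets past the signal criterion and 2 with only the 2 groups in the fit. It was 1 to 2, with 4 to 8 lower, when single rats were left out, and the pairs that differed numbered 1 with both past the signal criterion, 2 with 0.25 added and 0 to 2 without single rats. Without median scaling the median of all probesets moved from -0.08 to 0.08 for untransplanted rats and from -0.03 to 0.10 for recipients. The cause of these changes was not tested. Low signals, such as those of RT1-N2 in hearts and of 1388254_a_at, limit what their values show.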
